A study of Homo sapiens with 60 samples.

Results

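ATF4 and CHOP sit at the end of the integrated stress response, and the transcripts described here are those 2 factors and 8 genes that they switch on or that report their activity. The 10 genes (ATF4, DDIT3, ATF3, TRIB3, CHAC1, SESN2, DDIT4, STC2, ADM2 and NIBAN1) were listed by symbol, with earlier results of these data known, and found in a table of 60675 gene identifiers. All 10 were found and passed the filter on low counts that left 17764 genes, also when the libraries with the highest values of these genes were left out of the filter. The cells were A549, a human lung adenocarcinoma line with epithelial features that is widely used for drug response work, and RNA was taken 24 h after adding herbal extracts or tonic formulas of Korean medicine.

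RNA-seq counts covered 60 libraries in 25 groups. The vehicle group (DMSO, given as 0.1% in its labels and as 2% in the series design) had 3 libraries. The low dose of each extract was 20 µg/mL, the medium dose 100 µg/mL and the high dose 500 µg/mL. Sibjeondaebo-tang (3 libraries per dose) and Palmul-tang (2 per dose) are multi-herb formulas extracted in water. Ethanol extracts of Poria Cocos, Atractylodis Rhizoma, Glycyrrhizae Radix and Panax Ginseng had 3 libraries per dose, and ethanol extracts of Angelicae Gigantis Radix and Paeoniae Radix had 1 per dose. The library labels give these same 3 doses for every extract, whereas the series design describes lower doses, set from the 20% inhibitory concentration, for extracts where that concentration was under 500 µg/mL. The labels do not say that replicates were grown separately, and the p-values therefore measure only how far these libraries spread, which may be technical. The sample codes put the vehicle in a set of its own, Glycyrrhizae with Ginseng, Poria with Atractylodis, and both formulas together, so dose was compared within each extract and the vehicle cannot be told apart from its set.

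In the integrated stress response, kinases that sense amino acid shortage, heme shortage, viral RNA or unfolded protein in the endoplasmic reticulum (ER) phosphorylate the translation initiation factor eIF2. General translation slows, while the mRNA of ATF4, a basic leucine zipper transcription factor, is translated more. ATF4 then raises genes for amino acid uptake and synthesis, and with a persisting signal it raises DDIT3, which encodes CHOP, a further leucine zipper factor linked to cell death. These proteins are controlled to a large part at translation and by stability, which RNA counts do not show.

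ATF4 dimerises with C/EBP family members and binds composite elements whose core can be written TGATGNAA. That core, searched on both strands in the RefSeq promoter windows of GRCh38.p14 (250 bases before to 50 after a start site), was found for 2 of the 10 genes, CHAC1 and ATF3. All 10 genes had at least 1 window in that table, and the core was in 2 of their 15 windows and in 3.62% of all 35116 windows. In CHAC1 the match lies on the reverse strand and begins 209 bases before the start site, and in ATF3 it lies on the forward strand and begins 191 bases before it. ATF3 had 2 windows in that table, and only the window printed below held the core. The palindrome TGACGTCA, a cAMP response element, was in the windows of 0 members and in 1.85% of all windows, and the CCAAT box (CCAAT, or ATTGG on the other strand) was in 7 of the 15 member windows (6 genes) and in 34.6% of all windows. The 250 bases before the start site are shown for CHAC1 and ATF3, which hold the core (in capitals), and for ADM2 and NIBAN1, the members with the largest changes, which do not hold it in this window. Each is printed 5′ to 3′ on the gene's own strand. The CHAC1 sequence is chr15:40953221-40953470 (plus strand), ATF3 is chr1:212565157-212565406 (plus strand), ADM2 is chr22:50481293-50481542 (plus strand) and NIBAN1 is chr1:184974509-184974758 (minus strand).
CHAC1: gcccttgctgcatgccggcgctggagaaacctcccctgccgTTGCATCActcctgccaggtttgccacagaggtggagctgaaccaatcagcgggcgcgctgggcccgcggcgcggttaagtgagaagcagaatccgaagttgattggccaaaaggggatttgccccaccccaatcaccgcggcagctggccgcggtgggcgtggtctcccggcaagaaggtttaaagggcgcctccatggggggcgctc
ATF3: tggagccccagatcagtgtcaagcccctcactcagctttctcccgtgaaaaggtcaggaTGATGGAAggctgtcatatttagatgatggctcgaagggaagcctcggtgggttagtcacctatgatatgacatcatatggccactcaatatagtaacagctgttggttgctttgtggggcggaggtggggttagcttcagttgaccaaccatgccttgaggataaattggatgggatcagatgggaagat
ADM2: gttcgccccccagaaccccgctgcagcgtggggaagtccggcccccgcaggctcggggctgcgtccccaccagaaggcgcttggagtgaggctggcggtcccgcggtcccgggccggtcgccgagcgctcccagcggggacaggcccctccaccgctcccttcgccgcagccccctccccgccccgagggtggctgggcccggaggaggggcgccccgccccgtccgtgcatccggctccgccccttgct
NIBAN1: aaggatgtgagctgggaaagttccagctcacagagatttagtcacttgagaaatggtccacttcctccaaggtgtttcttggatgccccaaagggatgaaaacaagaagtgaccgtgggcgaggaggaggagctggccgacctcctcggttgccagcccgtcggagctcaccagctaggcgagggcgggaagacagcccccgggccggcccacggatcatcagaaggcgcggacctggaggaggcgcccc

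All 10 genes were higher at high than at low dose of Glycyrrhizae, from 1.42-fold for DDIT4 to 27.8-fold for ADM2. The median change was 2.36 on the log2 scale, against 0.00 for all genes tested. In each of the 10 the 3 high-dose libraries were above the 3 low-dose ones, as in 22.6% of all genes. The test called 3295 of 17764 genes, 18.5%, higher (edgeR's quasi-likelihood test, adjusted p under 0.05) and 3273, 18.4%, lower. At medium dose 0 of the 10 passed the test. Values below are CPM (each count over its library's total and scaled to a common depth with TMM), and a log2 change is the difference between group means fitted by edgeR, with its standard error (SE).

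**Figure D1:**
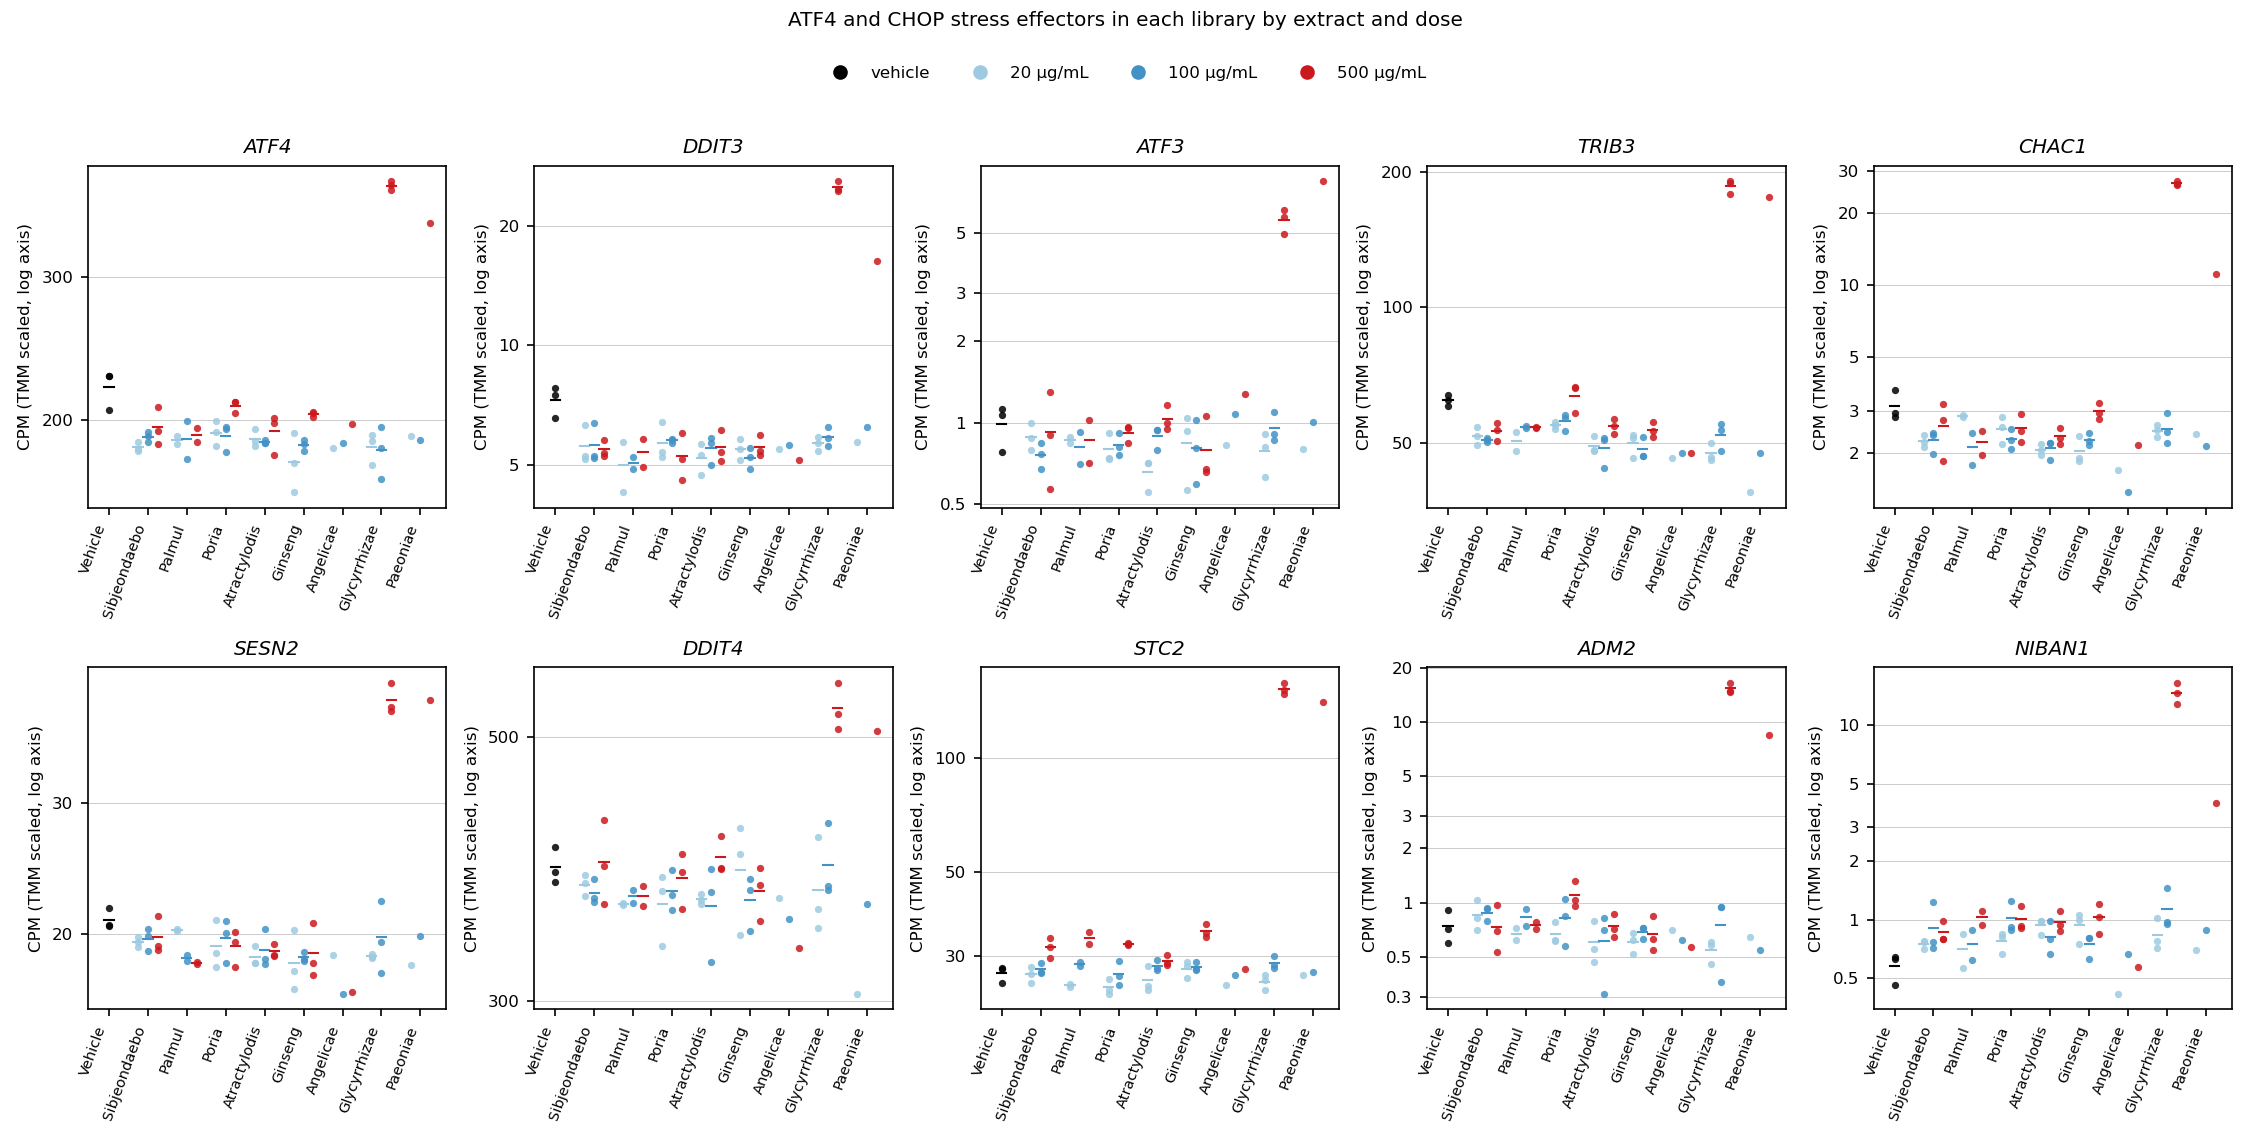
CPM of each of the 10 genes (log axis) in all 60 libraries, by extract (horizontal axis) and dose (colour); points are libraries and bars are means of groups with at least 2 libraries. In every panel the 3 Glycyrrhizae libraries at 500 µg/mL and the single Paeoniae library at 500 µg/mL stand above the remaining 56 libraries. How many of all genes share this pattern was not counted.

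ATF4 (ENSG00000128272, chromosome 22, 39519695 to 39522685, plus strand, GRCh38) is the master factor of the response. It measured 192, 176 and 188 CPM in the low-dose Glycyrrhizae libraries, 196, 169 and 185 CPM at medium dose, and 393, 383 and 389 CPM at high dose. Low and medium overlapped, and every high-dose library was above them. The change from low to high was 1.07 ± 0.05 on the log2 scale (adjusted p = 2.97e-22).

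DDIT3 (ENSG00000175197, chromosome 12, 57516588 to 57521737, minus strand) encodes CHOP. It measured 5.40, 5.68 and 5.87 CPM at low dose and 6.21, 5.83 and 5.57 CPM at medium dose of Glycyrrhizae. At high dose it measured 24.7, 25.9 and 24.5 CPM, above all low- and medium-dose libraries, with a log2 change of 2.14 ± 0.09 from low dose (adjusted p = 4.74e-24). In GENCODE 29 the gene overlaps MARS and MBD6 on the opposite strand, with mean counts of 3580 and 2137 over the 60 libraries. DDIT3 itself held 96 to 174 counts per library outside high-dose Glycyrrhizae and Paeoniae. On its own strand it overlaps the microRNA gene MIR616, with a mean count of 0, and the protein-coding gene AC022506.1, which was not analysed here. The strand setting used for counting is not given in the sources used here, so reads of these neighbours could enter the DDIT3 counts.

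ATF3 (ENSG00000162772, chromosome 1, 212565334 to 212620777, plus strand) is an early stress factor of the same leucine zipper class. Its low-dose Glycyrrhizae libraries held 0.907, 0.811 and 0.633 CPM and its medium-dose libraries 0.910, 0.866 and 1.10 CPM. The high-dose libraries held 5.76, 4.97 and 6.07 CPM, and the log2 change was 2.84 ± 0.19 (adjusted p = 5.80e-17). All 3 high-dose values were above the others, although counts were low, at 18 to 24 per library in the low-dose group.

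TRIB3 (ENSG00000101255, chromosome 20, 362835 to 397559, plus strand) encodes a pseudokinase that is induced by ATF4 and CHOP and restrains AKT and ATF4 itself. It measured 45.7, 49.8 and 46.4 CPM at low dose, 53.4, 55.0 and 47.9 CPM at medium dose and 191, 189 and 179 CPM at high dose of Glycyrrhizae. The high-dose group lay apart from both others. Its log2 change was 1.98 ± 0.06 from low to high (adjusted p = 3.04e-30).

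CHAC1 (ENSG00000128965, chromosome 15, 40952962 to 40956519, plus strand) encodes an enzyme that breaks down glutathione and is a direct reporter of ATF4 and CHOP activity. Low-dose Glycyrrhizae gave 2.49, 2.32 and 2.60 CPM and medium dose gave 2.94, 2.44 and 2.20 CPM. High dose gave 26.3, 27.1 and 26.3 CPM, the tightest high-dose group relative to its mean after ATF4 (26.6 ± 0.467 CPM, SD, n = 3). The log2 change was 3.42 ± 0.12 (adjusted p = 1.55e-27).

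SESN2 and DDIT4 encode brakes on the growth kinase complex mTORC1, SESN2 as a leucine sensor and DDIT4 (also called REDD1) through the TSC complex. SESN2 (ENSG00000130766, chromosome 1, 28259527 to 28282491, plus strand) measured 18.6, 18.6 and 18.8 CPM at low dose, 19.5, 22.2 and 17.7 CPM at medium dose and 43.5, 39.9 and 40.3 CPM at high dose of Glycyrrhizae. DDIT4 (ENSG00000168209, chromosome 10, 72273920 to 72276036, plus strand) measured 358, 412 and 346 CPM at low, 375, 423 and 372 CPM at medium and 508, 523 and 556 CPM at high dose. Both had every high-dose library above the other 6 libraries of Glycyrrhizae. The log2 changes from low to high were 1.14 ± 0.06 for SESN2 (adjusted p = 8.88e-20) and 0.51 ± 0.07 for DDIT4 (adjusted p = 2.79e-08), the smallest of the 10.

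STC2 and ADM2 encode secreted proteins, the glycoprotein stanniocalcin 2 and the peptide hormone adrenomedullin 2. STC2 (ENSG00000113739, chromosome 5, 173314713 to 173329503, minus strand) measured 25.8, 26.7 and 24.4 CPM at low dose, 30.0, 28.3 and 27.9 CPM at medium dose and 147, 158 and 151 CPM at high dose of Glycyrrhizae. Its log2 change from low to high, 2.57 ± 0.05 (adjusted p = 3.44e-36), was the 6th of all 17764 genes by p. Its 3 medium-dose libraries also lay above the 3 low-dose ones, but that difference of 0.17 ± 0.06 did not pass the test (adjusted p = 0.246).

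ADM2 (ENSG00000128165, chromosome 22, 50481556 to 50486440, plus strand) went from 0.604, 0.579 and 0.457 CPM at low dose and 0.952, 0.945 and 0.366 CPM at medium dose to 14.9, 16.4 and 14.6 CPM at high dose of Glycyrrhizae. The log2 change from low to high was 4.80 ± 0.20 (adjusted p = 6.40e-24), with 13 to 16 counts per library in the low-dose group. NIBAN1 (ENSG00000135842, chromosome 1, 184790724 to 184974550, minus strand), a stress-induced regulator of translation also known as FAM129A, measured 0.718, 0.773 and 1.02 CPM at low dose, 0.952, 1.46 and 0.976 CPM at medium dose and 12.9, 14.7 and 16.5 CPM at high dose. Its log2 change was 4.12 ± 0.16 (adjusted p = 7.21e-25). These were the members with the lowest vehicle levels and the largest changes.

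The order of the members by level was partly rearranged. Per kilobase of exon, the vehicle group had 189 CPM per kb for DDIT4, 87.4 for ATF4, 18.1 for TRIB3, 6.06 for SESN2, 5.57 for DDIT3, 4.41 for STC2, 1.53 for CHAC1, 0.245 for ATF3, 0.173 for ADM2 and 0.0687 for NIBAN1. At high-dose Glycyrrhizae the first 3 kept their places, at 257, 154 and 54.3 CPM per kb. STC2 stood next, at 24.8 CPM per kb, above DDIT3 at 19.1, CHAC1 at 12.9 and SESN2 at 11.9. ADM2 (3.58) and NIBAN1 (1.76) stood above ATF3 (1.39), which was last.

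Against medium dose, high-dose Glycyrrhizae was higher for 10 of 10 members, where 18.0% of all genes were called higher. Changes ran from 0.44 ± 0.07 for DDIT4 (adjusted p = 7.22e-07) to 4.33 ± 0.20 on the log2 scale for ADM2 (adjusted p = 9.38e-23). Against the vehicle it was again higher for 10 of 10 members, where 23.3% of all genes were called higher, from 0.44 ± 0.07 for DDIT4 (adjusted p = 3.96e-07) to 4.67 ± 0.18 for NIBAN1 (adjusted p = 3.90e-25). These comparisons share the high-dose libraries with the first. Between medium and low dose of Glycyrrhizae 0.788% of all genes were called and 0 of 10 members were. In that comparison 2 members, STC2 and TRIB3, had an unadjusted p under 0.05, as had 1346 of all 17764 genes. DESeq2 also called 0 members. With same-numbered replicates as a block, the genes called there went from 140 to 211 and the members called stayed at 0.

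**Figure D2:**
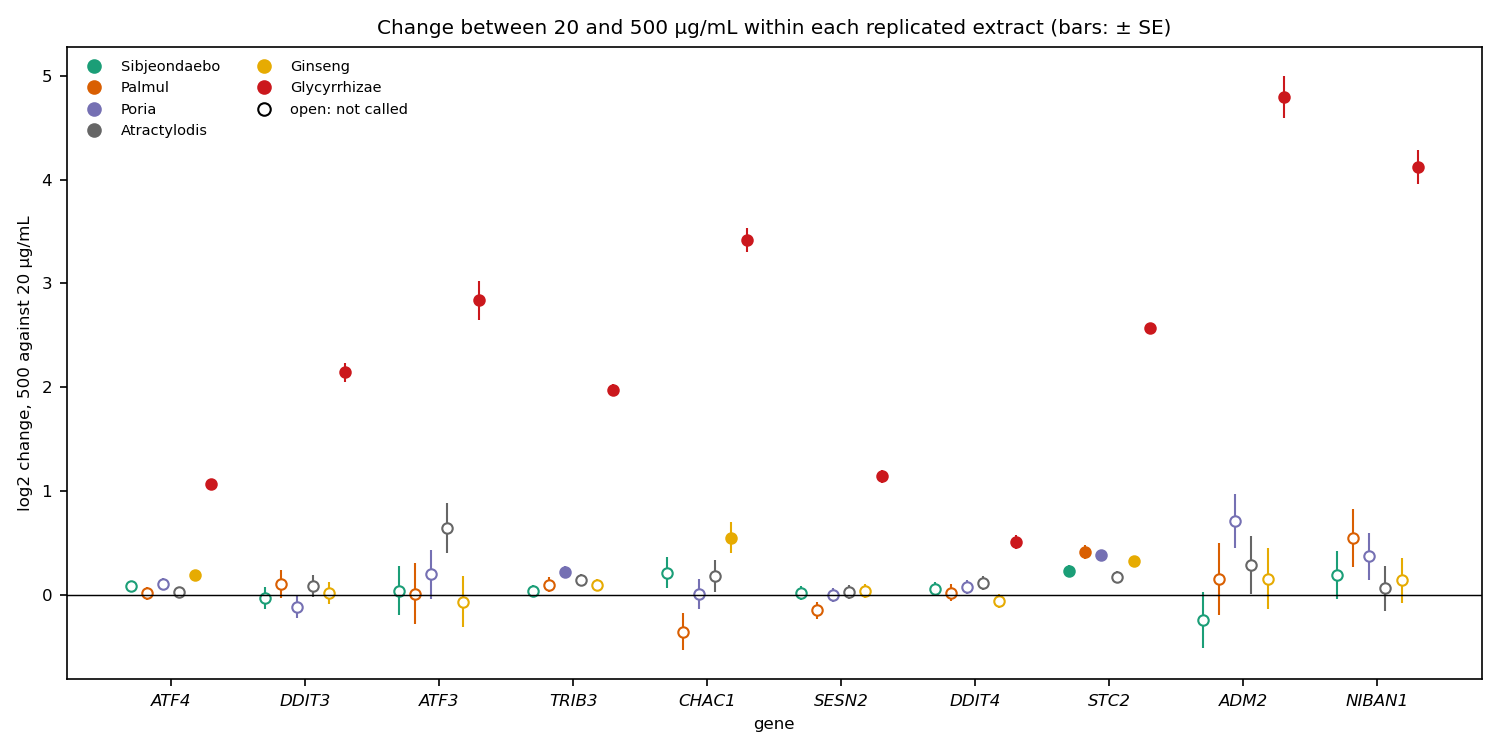
Log2 change of each gene from 20 to 500 µg/mL (vertical axis) within the 6 replicated extracts (colours); bars are ± SE, filled points passed edgeR's test at adjusted p under 0.05 and open points did not. Glycyrrhizae changes run from 0.51 to 4.80, and those of the other 5 extracts run from -0.35 to 0.72.

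The other 5 replicated extracts moved few members, and STC2 was called most often among them. In Sibjeondaebo-tang 1 of 10 members was higher at high than at low dose, where 2.35% of all genes were called higher. That member was STC2, with 25.5, 26.9 and 28.0 CPM at low dose and 29.6, 31.6 and 33.5 CPM at high dose, a log2 change of 0.23 ± 0.06 (adjusted p = 0.00767). The groups did not overlap, but the adjusted p was 0.0686 without low-dose replicate 1 and 0.0821 without high-dose replicate 3.

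In Palmul-tang 1 of 10 members was higher, where 1.29% of all genes were. STC2 held 24.9 and 25.3 CPM at low dose and 34.6 and 32.2 CPM at high dose, a change of 0.41 ± 0.07 (adjusted p = 0.000178). The change of CHAC1, which measured 2.81 and 2.88 CPM at low dose and 1.96 and 2.47 CPM at high dose, was -0.35 ± 0.18 and did not pass the test (adjusted p = 0.445). The difference between the formulas in their change with dose was called for 0 of the 10 members, where 0.00% of all genes were called. At an unadjusted p under 0.05 it held for 2 members and 904 genes, and DESeq2 called 1 gene in all.

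In Poria 2 of 10 members were higher, where 1.06% of all genes were called higher. STC2 measured 23.8, 26.1 and 24.3 CPM at low dose and 32.2, 32.1 and 32.5 CPM at high dose (0.38 ± 0.06, adjusted p = 3.95e-05). TRIB3 measured 53.6, 54.6 and 55.6 CPM at low dose and 66.2, 58.3 and 66.4 CPM at high dose (0.22 ± 0.06, adjusted p = 0.0327). Leaving out any one library other than high-dose replicate 2 ended the TRIB3 call, with adjusted p between 0.0664 and 0.208. ADM2 measured 0.778, 0.625 and 0.613 CPM at low dose and 1.32, 1.04 and 0.963 CPM at high dose. Its change of 0.72 ± 0.26 did not pass (adjusted p = 0.190). In edgeR's test 4 members had an unadjusted p under 0.05, as had 2112 of all 17764 genes.

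In Atractylodis 0 of 10 members were called, where 0.208% of all genes were called. DESeq2 also called 0 members, and 3 members had an unadjusted p under 0.05 in edgeR's test, as had 1217 of all 17764 genes. STC2 measured 24.3, 24.9 and 28.2 CPM at low dose and 28.4, 30.1 and 28.8 CPM at high dose (0.17 ± 0.06, adjusted p = 0.318). ATF3 measured 0.712, 0.709 and 0.555 CPM at low dose and 0.951, 1.16 and 0.994 CPM at high dose (0.65 ± 0.24, adjusted p = 0.533). The change with dose in Poria minus that in Atractylodis was called for 0 of 10 members, where 0.0732% of all genes were called, and for STC2 the difference was 0.21 ± 0.08 (adjusted p = 0.497).

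In Ginseng 3 of 10 members were higher, where 0.552% of all genes were called higher. STC2 measured 26.2, 28.9 and 28.2 CPM at low dose and 33.7, 34.4 and 36.4 CPM at high dose (0.32 ± 0.06, adjusted p = 0.000331). ATF4 measured 177, 163 and 193 CPM at low dose and 202, 204 and 204 CPM at high dose (0.19 ± 0.05, adjusted p = 0.0345). CHAC1 measured 2.36, 1.85 and 1.90 CPM at low dose and 2.92, 2.78 and 3.23 CPM at high dose (0.55 ± 0.15, adjusted p = 0.0470). The ATF4 call was lost when any one library other than low-dose replicate 3 was left out, with an adjusted p of up to 0.389, and the CHAC1 call when any one other than low-dose replicate 1 was, with up to 0.269. DESeq2 did not call CHAC1 either (adjusted p = 0.125), and with no filter on low counts the adjusted p was 0.0595 for ATF4 and 0.142 for CHAC1. With same-numbered replicates as a block the genes called in Ginseng went from 214 to 334, and 3 members were called. Fitted on only the compared groups, the adjusted p of STC2 in Ginseng was 0.111.

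The change from low to high dose was larger in Glycyrrhizae than in Ginseng, which shares its set of sample codes, for 10 of 10 members. In that test of the difference 9.72% of all genes were called higher. Differences in the log2 change ran from 0.56 ± 0.09 for DDIT4 (adjusted p = 9.12e-06) to 4.64 ± 0.38 for ADM2 (adjusted p = 2.32e-13). Against the mean of the other 5 replicated extracts it was larger for 10 of 10 as well, where 15.6% of all genes were called higher.

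Between medium and low dose, 0 of 10 members were called in each of the other 5 replicated extracts. The share of all genes called was 0.0788% in Sibjeondaebo-tang and 0.00% in Palmul-tang, Poria, Atractylodis and Ginseng. At an unadjusted p under 0.05 there were 863 genes in Palmul-tang, 766 in Poria, 445 in Atractylodis and 554 in Ginseng, and DESeq2 called 3 genes in Palmul-tang and 3 in Ginseng.

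Angelicae and Paeoniae had 1 library per dose, so their values carry no replicate check and no test. Their changes are given as log2 ratios of CPM plus 1, which understate the change of genes near 0. In Paeoniae 8 of 10 members were at least 2-fold higher at high than at low dose, where 2.12% of all genes were. The median was 1.69 for the members and 0.00 for all genes. TRIB3 measured 38.8 CPM at low, 47.6 CPM at medium and 176 CPM at high dose of Paeoniae, and STC2 measured 26.6, 27.2 and 141 CPM. ADM2 measured 0.649, 0.545 and 8.47 CPM, ATF3 measured 0.799, 1.01 and 7.77 CPM, and DDIT3 measured 5.69, 6.20 and 16.3 CPM. CHAC1 went from 2.40 and 2.14 to 11.1 CPM, SESN2 from 18.2 and 19.9 to 41.3 CPM, and NIBAN1 from 0.699 and 0.880 to 3.99 CPM. ATF4, at 191, 189 and 349 CPM, and DDIT4, at 304, 362 and 506 CPM, were the members under 2-fold, with ratios of 0.87 and 0.73. In each of the 10 the larger rise came between 100 and 500 µg/mL. From low to medium dose TRIB3 and DDIT4 already had ratios of 0.29 and 0.25. For both genes the low-dose Paeoniae library was the lowest of the 56 libraries outside high-dose Glycyrrhizae and Paeoniae. A ratio to that library is therefore larger than a ratio to any other of them.

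In Angelicae 0 of 10 members were at least 2-fold higher at high dose, where 0.0676% of all genes were. Its high-dose library held 198 CPM of ATF4, 5.14 CPM of DDIT3, 47.3 CPM of TRIB3, 27.7 CPM of STC2 and 0.571 CPM of ADM2, beside 185 CPM, 5.48 CPM, 46.3 CPM, 25.1 CPM and 0.706 CPM at low dose. Its ATF3, at 1.27 CPM, was the highest group value outside high-dose Glycyrrhizae and Paeoniae.

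**Figure D3:**
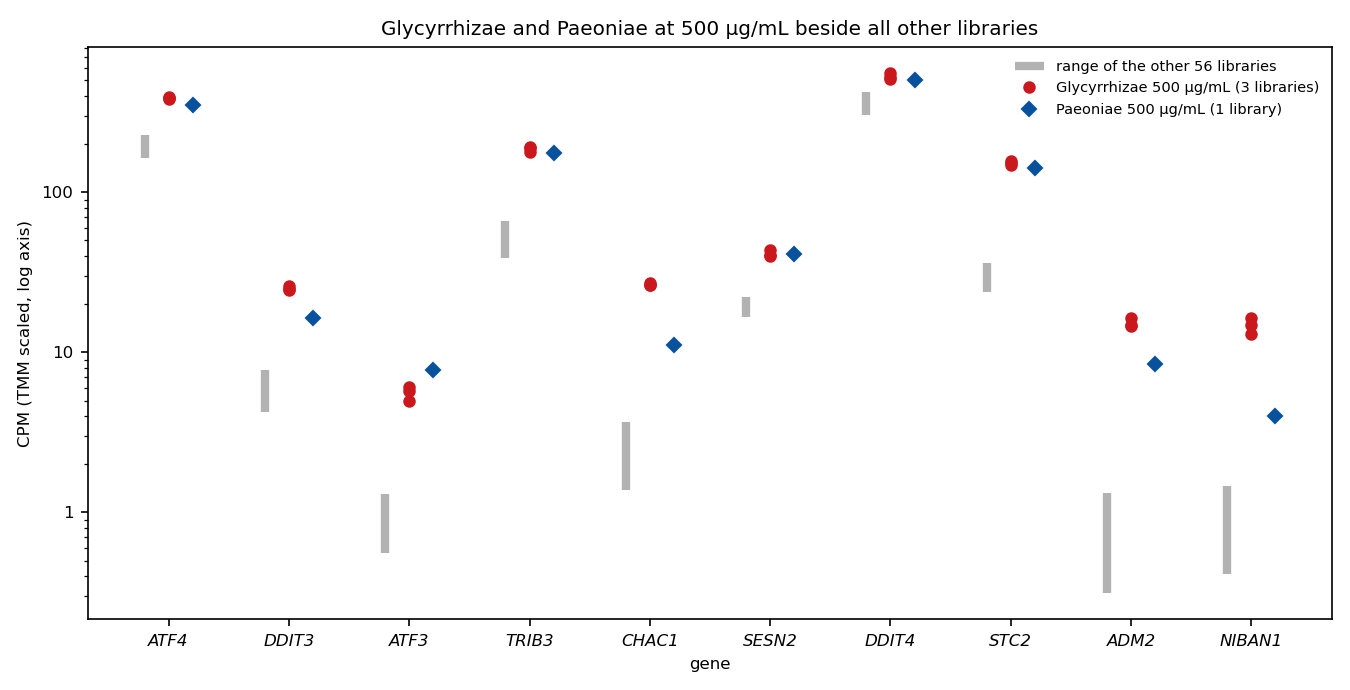
CPM of each gene (log axis) in the 3 high-dose Glycyrrhizae libraries (circles), the high-dose Paeoniae library (diamonds) and the range of the remaining 56 libraries (grey bars). Paeoniae is above the Glycyrrhizae range for ATF3, within it for SESN2 and below it for the other 8 genes.

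The levels of Glycyrrhizae and Paeoniae at 500 µg/mL are given side by side, with no test, since Paeoniae had 1 library. The lowest high-dose Glycyrrhizae library exceeded the highest of the remaining 56 libraries by 1.19 times for DDIT4, 1.69 times for ATF4 and 1.80 times for SESN2. For CHAC1, NIBAN1 and ADM2 it did so by 7.15, 8.87 and 11.0 times. The Paeoniae value was 1.39 times the Glycyrrhizae mean for ATF3 and 1.00 times for SESN2. It was 0.90 to 0.96 times that mean for ATF4, STC2, TRIB3 and DDIT4, 0.65 times for DDIT3 and 0.55 times for ADM2. The widest gaps were CHAC1, at 0.42 times, and NIBAN1, at 0.27 times.

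Across the 56 remaining libraries the members varied little, with a coefficient of variation of 5.95% for ATF4, 6.20% for SESN2 and 6.33% for DDIT4. It was 9.98% for TRIB3, 10.1% for STC2 and 11.0% for DDIT3. The members with few counts were more variable, at 17.7% for CHAC1, 19.5% for ATF3, 23.4% for NIBAN1 and 25.6% for ADM2, where single libraries held as few as 8 counts of ADM2 and 10 of NIBAN1. Among those groups the vehicle had the highest mean of ATF4, DDIT3, CHAC1 and SESN2.

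The vehicle stood above the low-dose libraries for 5 members. ATF4 measured 226, 227 and 206 CPM in the vehicle, and 19 of the 19 low-dose libraries, Angelicae and Paeoniae included, were below all 3. Of all 17764 genes, 6.99% had all 19 below the vehicle in this way, and 10.4% had at least 18 below. DDIT3 measured 7.49, 7.79 and 6.55 CPM and TRIB3 60.3, 63.9 and 62.2 CPM in the vehicle, again above all 19. CHAC1 measured 2.94, 3.67 and 2.82 CPM and SESN2 21.6, 20.5 and 20.6 CPM, each above 18 of the 19. The mean low dose of the 6 replicated extracts fell below the vehicle by 0.24 ± 0.04 on the log2 scale for ATF4 (adjusted p = 3.99e-06), by 0.43 ± 0.08 for DDIT3 (adjusted p = 3.20e-05) and by 0.30 ± 0.04 for TRIB3 (adjusted p = 8.34e-07). CHAC1 fell by 0.43 ± 0.11 (adjusted p = 0.00194) and SESN2 by 0.13 ± 0.05 (adjusted p = 0.0471).

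**Figure D4:**
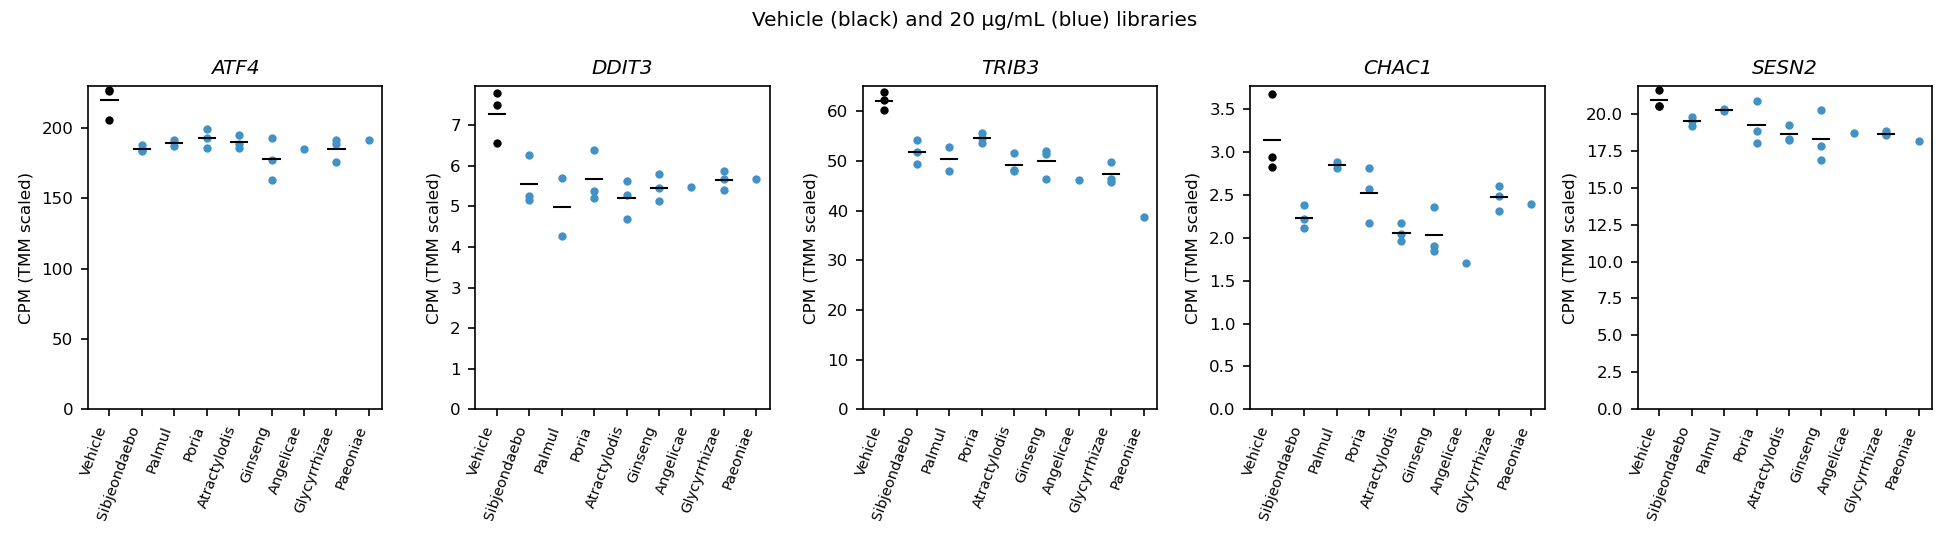
CPM (linear axis from 0) of the 5 members that were lower at 20 µg/mL than in the vehicle; points are libraries, bars are means of groups with at least 2 libraries, vehicle in black and low dose in blue. All 19 low-dose libraries are below the 3 vehicle libraries for ATF4, DDIT3 and TRIB3.

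In this comparison 17.1% of all genes were called lower and 16.9% higher, so 5 of 10 members called lower stand beside a large share of all genes, and the vehicle was a sample set of its own. The other 5 members did not pass: DDIT4, STC2, ADM2 and ATF3 changed by -0.07, -0.06, -0.16 and -0.30, and NIBAN1 by 0.51 ± 0.20 (adjusted p = 0.0864). The CHAC1 call was lost without vehicle replicate 2 (adjusted p = 0.115). The SESN2 call was lost in 20 of 25 alternative settings, with adjusted p of up to 0.236.

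Other genes that ATF4 is known to raise moved with the members in Glycyrrhizae. Of 29 such genes, 26 were higher at high than at low dose and 0 lower, with a median of 1.36 on the log2 scale. In that comparison 18.5% of all genes were called higher and 18.4% lower. ASNS, which makes asparagine, rose from 33.4 to 237 CPM (2.82 ± 0.05, adjusted p = 2.41e-38). PHGDH, the first enzyme of serine synthesis, rose by 2.28 ± 0.04 (adjusted p = 6.27e-37), the mitochondrial enzyme PCK2 by 2.68 ± 0.07 (adjusted p = 1.05e-31) the folate enzyme ALDH1L2 by 1.72 ± 0.05 (adjusted p = 1.46e-29) and the glycyl-tRNA synthetase GARS1 by 1.46 ± 0.04 (adjusted p = 1.46e-29). Outside the naming rule, SLC38A2, KLHL24 and CTH were the 3 that were not called, and FGF21, a stress hormone, had 35, 26 and 34 counts in the high-dose Glycyrrhizae libraries and at most 1 count in each of the 57 others. FGF21 was at least 11.1-fold higher than in the low-dose group, taking 3 counts per library as the floor. It is 1 of the 26 called higher. With so few counts elsewhere it passed the filter on low counts only through the high-dose Glycyrrhizae libraries. Its call was therefore set by the filter and adds nothing to the 26.

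In Paeoniae 10 of the 29 were at least 2-fold higher at high dose (2.12% of all genes), against 21 of 29 in Glycyrrhizae on the same scale (0.940% of all genes). FGF21, which passed the filter only through high-dose Glycyrrhizae, is among those 21. The members at least 2-fold higher on that scale were 8 of 10 in Paeoniae and 9 of 10 in Glycyrrhizae. ASNS went from 32.6 to 89.0 CPM and PCK2 from 17.2 to 39.7 CPM in Paeoniae. PHGDH went from 22.4 to 36.0 CPM, and ALDH1L2 was 38.9 CPM at both doses. The extracts' shares were not tested against each other.

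**Figure D5:**
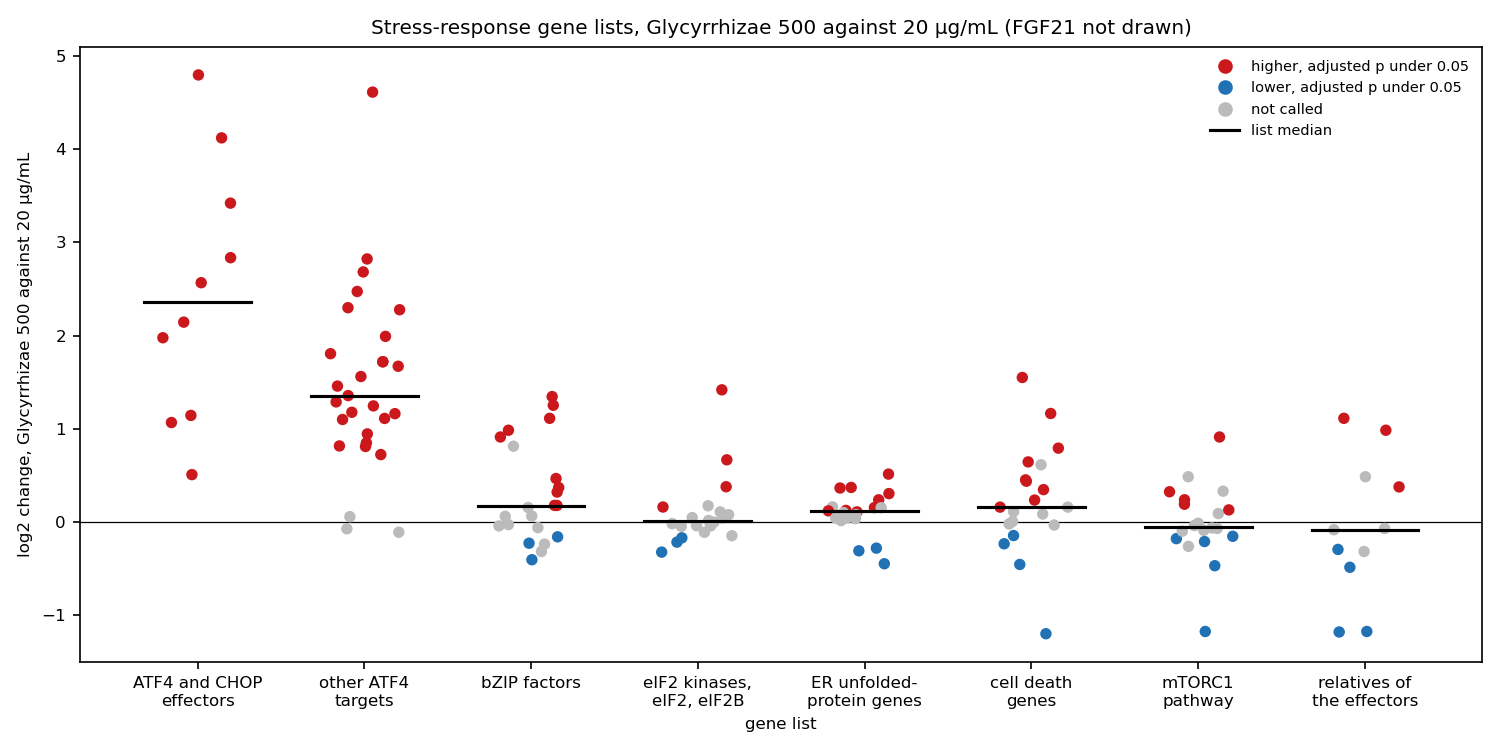
Log2 change from 20 to 500 µg/mL of Glycyrrhizae (vertical axis) for the genes of 8 lists (horizontal axis); red and blue points were called higher and lower, grey points were not called, and the black bar is the list median. The medians are 2.36 for the 10 effectors, 1.36 for the other ATF4 targets and between -0.08 and 0.17 for the other lists. FGF21 is not drawn but is included in the median of the other ATF4 targets.

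In Glycyrrhizae, genes of the steps before ATF4 had a smaller median change than the members. Of 20 genes for the eIF2 kinases, eIF2, its exchange factor eIF2B and their regulators, 4 were higher, 3 lower and the median was 0.01. These counts lie near the shares of all genes, 18.5% higher and 18.4% lower. PPP1R15A (GADD34), which brings a phosphatase to eIF2 and is itself an ATF4 and CHOP target, rose from 26.7 to 71.4 CPM (1.42 ± 0.06, adjusted p = 4.25e-24). EIF2S2, a subunit of eIF2, rose by 0.67 ± 0.05 (adjusted p = 8.16e-16) and PPP1R15B, the constitutive relative of PPP1R15A, by 0.38 ± 0.06 (adjusted p = 2.77e-07). EIF2B1 fell by 0.22 ± 0.04 (adjusted p = 9.41e-05). In Paeoniae, without a test, 2 of the 20 were at least 2-fold higher at high dose (2.12% of all genes), with a median of -0.08. These were PPP1R15A, from 29.1 to 84.0 CPM, and the eIF2 kinase gene EIF2AK3, from 27.4 to 60.4 CPM. In Glycyrrhizae EIF2AK3 was at 29.3 CPM at low and 30.2 CPM at high dose.

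Partner factors of the leucine zipper class were 10 higher and 3 lower of 22 in Glycyrrhizae, with a median of 0.17. The shares of all genes were 18.5% higher and 18.4% lower. CEBPG, a dimer partner of ATF4, rose by 1.11 ± 0.06 (adjusted p = 9.63e-20). The AP-1 genes JUN and JUND rose by 1.25 ± 0.07 (adjusted p = 2.46e-19) and 0.91 ± 0.09 (adjusted p = 6.65e-12), and JDP2, a close relative of ATF3, by 0.98 ± 0.10 (adjusted p = 1.65e-11).

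ER chaperone and unfolded-protein genes, the targets of the ATF6 and XBP1 branches, were 9 higher and 3 lower of 20 in Glycyrrhizae. Their median was 0.11, and the shares of all genes were 18.5% higher and 18.4% lower. ERN1, the sensor IRE1, rose by 0.51 ± 0.05 (adjusted p = 1.08e-11), the chaperone HSPA5 (BiP) by 0.37 ± 0.04 (adjusted p = 1.21e-09) and HERPUD1 by 0.36 ± 0.05 (adjusted p = 2.28e-07). CRELD2 fell by 0.45 ± 0.07 (adjusted p = 2.40e-07). The rise of HSPA5 was 0.37 beside 2.14 for DDIT3 in Glycyrrhizae. In Paeoniae, without a test, 2 of the 20 were at least 2-fold higher at high dose (2.12% of all genes). These were DNAJB9, from 13.6 to 35.3 CPM, and EDEM1, from 35.4 to 80.9 CPM. As ratios of CPM plus 1, the median of the 20 was 0.35 in Paeoniae and 0.11 in Glycyrrhizae, where 0 reached 2-fold.

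Cell death genes downstream of CHOP and their neighbours were 9 higher and 4 lower of 20 in Glycyrrhizae, with a median of 0.16. The shares of all genes were 18.5% higher and 18.4% lower. GADD45A, a growth arrest gene, rose by 1.16 ± 0.07 (adjusted p = 7.13e-19) and PMAIP1 (NOXA), a BH3-only death gene, by 1.55 ± 0.09 (adjusted p = 1.26e-18). HRK, which is also a BH3-only gene, fell by 1.20 ± 0.08 (adjusted p = 2.50e-17). The death receptor gene TNFRSF10A rose by 0.45 ± 0.06 (adjusted p = 7.31e-08).

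Regulators of mTORC1 other than the members were 5 higher and 5 lower of 20 in Glycyrrhizae, with a median of -0.05. These counts lie near the shares of all genes, 18.5% higher and 18.4% lower. SESN3 fell by 1.18 ± 0.06 (adjusted p = 5.69e-20) and CASTOR2 by 0.47 ± 0.11 (adjusted p = 0.000851). RRAGD, a Rag GTPase, rose by 0.91 ± 0.13 (adjusted p = 7.30e-08) and FLCN by 0.32 ± 0.08 (adjusted p = 0.00104).

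Close relatives of the members did not follow them as a group. Of 14 relatives 11 were tested, and 3 were higher (CEBPG, JDP2 and TRIB1) and 4 lower (SESN3, STC1, NIBAN2 and CHAC2) in Glycyrrhizae. Among all genes 18.5% were called higher and 18.4% lower. STC1, the relative of STC2, fell by 1.18 ± 0.10 (adjusted p = 5.51e-13) where STC2 rose by 2.57. NIBAN2 fell by 0.49 ± 0.07 (adjusted p = 1.12e-07) and CHAC2 by 0.29 ± 0.08 (adjusted p = 0.00361), while TRIB1 rose by 0.38 ± 0.07 (adjusted p = 5.46e-05). ATF5, DDIT4L, ADM and SESN1 did not pass, with changes of -0.32, 0.49, -0.08 and -0.07. TRIB2, CALCB and NIBAN3 did not pass the filter on low counts.

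In Paeoniae, without a test, 7 of the 11 relatives had the same sign of change from low to high dose as in Glycyrrhizae, CEBPG, JDP2 and SESN3 among them. The other 4 (SESN1, STC1, ADM and NIBAN2) were higher at high dose in Paeoniae and had a change below 0 in Glycyrrhizae. STC1 was at 40.5 CPM at low and 208 CPM at high dose of Paeoniae, and at 34.1 and 15.1 CPM in Glycyrrhizae. ADM, the relative of ADM2, was at 13.8 and 79.2 CPM in Paeoniae and at 17.8 and 16.8 CPM in Glycyrrhizae. NIBAN2 was at 167 and 309 CPM in Paeoniae and at 197 and 140 CPM in Glycyrrhizae. STC2 and ADM2 were high in both.

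The genes whose pattern over the 25 groups was most like the mean pattern of the 10 members were SLC1A4, GDF15, MTHFD2, CEBPG, SLC7A1, TNFRSF9, ULBP1, TIPARP, PPP1R15A and CYP2S1, with Pearson's r of group means between 0.966 and 0.986. Of these, 7 were already in one of the lists above. Without the 3 Glycyrrhizae groups the 10 most alike over 22 groups included ADM, QSOX1, PPP1R15A, GNA12, SEMA4B, SLC6A8, ATG9A, P4HA2 and PLAUR, with r between 0.978 and 0.985. PPP1R15A was in both sets. High-dose Glycyrrhizae and Paeoniae are the extreme points of the first ranking and the 1 high-dose Paeoniae library that of the second. By Spearman's rank 0 of the 10 genes in either set were again among the most alike.

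Total counts ran from 18602484 to 29764358 per library. All 10 epithelial and A549 markers had a median over 10 CPM. Of 17 markers of other cell types 11 were too low to be tested, and 6 had a median of 0, PTPRC and CD3E among them. Other markers of this list were expressed. CD68 and ACTA2 also had a median over 10 CPM, and that of CD68 was above the median of the epithelial marker EPCAM. The summed epithelial markers were 17503 to 18644 CPM at high-dose Glycyrrhizae, 20980 to 22777 CPM at its low dose and 14826 CPM at high-dose Paeoniae, with 6 of 10 lower and 1 of 10 higher in Glycyrrhizae. The summed markers of other cell types were 81.9 to 93.1 CPM at high and 37.2 to 42.5 CPM at low dose of Glycyrrhizae. They were 79.6 CPM at high-dose Paeoniae. Of the 6 tested, CD68, a lysosomal gene used as a macrophage marker, was higher and DCN lower in Glycyrrhizae. Both were named after their values were seen. Without CD68 the sums were 20.0 to 21.1 CPM at high and 20.4 to 22.2 CPM at low dose of Glycyrrhizae. High-dose Paeoniae then had 30.3 CPM. The 56 libraries outside high-dose Glycyrrhizae and Paeoniae had 15.9 to 24.5 CPM. The mitochondrial share of counts was 19.2% to 22.8% at high and 16.3% to 21.5% at low dose of Glycyrrhizae, and 24.3% at high-dose Paeoniae. The part of these measures in the member changes was not tested, and in bulk RNA a change in the number of responding cells cannot be told apart from a change in RNA per cell.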

How the data were processed

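The authors deposited expected counts per gene, made per the submitters' processing notes with FastQC 0.11.9, Trim Galore 0.6.5, STAR 2.7.3a and RSEM 1.3.3 on GRCh38. Neither the annotation release nor the counting strand is given in the sources used here. Of 270 columns, 210 were not used. Counts were rounded. Of the values above 0, 75.98% were whole within 1e-09.

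The 60 libraries were fitted together with edgeR 4.0.16 (R 4.3.3): filterByExpr, TMM, 1 mean per group, 35 residual degrees of freedom, quasi-likelihood tests in 19 comparisons, Benjamini-Hochberg adjustment within each comparison over 17764 genes, threshold 0.05. Each SE is the size of the log2 change over the root of its F statistic. The fits were tested on simulated data. Positions came from GENCODE 29, symbols from a separate list of gene names, and promoters from RefSeq. No pair of replicates was within sampling noise (chi-square per degree of freedom of at least 2.72 over 51 pairs).

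The members and the gene lists were chosen with earlier results of these data known. Each list names the 4 genes with the smallest adjusted p among those called in Glycyrrhizae high against low dose, ties included, and all relatives of the members. Genes named outside this rule were chosen after their values were seen. Likeness used log2 group means of CPM plus 1.

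Alternatives were a replicate block, leaving out each library, only the compared groups, DESeq2 1.42.0, no filter, RLE size factors, and other pseudocounts or Spearman's rank for the unreplicated and likeness results. Same-numbered libraries deviated together (every pair's correlation over 0.1) for Glycyrrhizae medium against low (0.196 to 0.634) and high against medium (0.242 to 0.519), and Ginseng high (0.190 to 0.305) and medium (0.345 to 0.410) against low, which is a hint from the data. The labels put all libraries in the same batch and tie no batch to the replicate number.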

Additional observations from a re-analysis of the deposited data

Results flagged for a closer look

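The change from low to high dose differed between extracts for each of the 10 members, by a test of the difference itself in edgeR's model. For Glycyrrhizae minus Ginseng that test called 21.0% of all genes in either direction and 9.72% higher. For Glycyrrhizae minus the mean of the other 5 replicated extracts these shares were 32.4% and 15.6%. Glycyrrhizae minus Ginseng, which share a set of sample codes, differed on the log2 scale by 0.87 for ATF4, 2.13 for DDIT3, 2.90 for ATF3, 1.88 for TRIB3, 2.87 for CHAC1, 1.10 for SESN2, 0.56 for DDIT4, 2.24 for STC2, 4.64 for ADM2 and 3.98 for NIBAN1. Glycyrrhizae minus the mean of the other 5 replicated extracts differed by 0.98 for ATF4, 2.13 for DDIT3, 2.67 for ATF3, 1.86 for TRIB3, 3.30 for CHAC1, 1.16 for SESN2, 0.46 for DDIT4, 2.26 for STC2, 4.58 for ADM2 and 3.86 for NIBAN1. Groups of 3 libraries or fewer were too small for a test of single outlying libraries.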

How the results depend on the processing

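All calls of members in Glycyrrhizae high against low, high against medium and high against vehicle, and in both differences from other extracts, held under the replicate block, DESeq2, only the compared groups, no low-count filter, RLE size factors and leaving out each library. No called member changed direction under these alternatives. Outside Glycyrrhizae the calls were less stable: with only the compared groups, which leaves few degrees of freedom, the members called were 0 in Sibjeondaebo-tang, 1 in Poria and 0 in Ginseng (1 with no filter). The cause was not tested otherwise.

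Genes called at high against low dose moved as follows. With the replicate block they were 1014 in Sibjeondaebo-tang (main 672), 577 in Palmul-tang (370), 493 in Poria (275), 86 in Atractylodis (37) and 334 in Ginseng (214). With only the compared groups they were 268 in Sibjeondaebo-tang, 108 in Poria, 19 in Atractylodis and 13 in Ginseng. Atractylodis had 67 with DESeq2 and 209 with no filter. At medium against low dose Sibjeondaebo-tang (14) had 25 with DESeq2, 88 with no filter, 23 with the replicate block and 7 with only the compared groups. Palmul-tang (0) had 3, 65 and 4 with DESeq2, no filter and only the compared groups. Poria (0) had 59 with no filter and 1 with the block, Atractylodis (0) had 50 with no filter, and Ginseng (0) had 3 with DESeq2 and 44 with no filter. Glycyrrhizae (140) had 228 with no filter, 211 with the block and 7 with only the compared groups. The difference of Poria and Atractylodis (13) had 43 with DESeq2, 158 with no filter, 46 with the block and 0 with only the compared groups, and that of the formulas (0) had 1 with DESeq2 and 61 with no filter. The block changed no call of a member except SESN2 at low dose against the vehicle (adjusted p = 0.0530). Of 15 libraries of the formulas 9 were closest to their own number, as were 17 of 18 of Poria and Atractylodis and 17 of 18 of Glycyrrhizae and Ginseng.

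Leaving out 1 library gave 381 to 503 genes in Sibjeondaebo-tang high against low, 106 to 169 in Palmul-tang, 144 to 192 in Poria, 13 to 31 in Atractylodis, 92 to 246 in Ginseng and 5774 to 5940 in Glycyrrhizae. Members called were then 0 to 1, 1 to 1, 1 to 2, 0 to 0, 1 to 2 and 10 to 10. At medium against low dose the ranges were 1 to 3 in Sibjeondaebo-tang, 0 to 2 in Poria, 0 to 2 in Ginseng and 65 to 148 in Glycyrrhizae. The difference of Poria and Atractylodis had 7 to 18, and low dose against vehicle called 3 to 5 members. With Palmul-tang 1 library was then left in a group, assumed to vary like the other groups. In Paeoniae, 5 members were at least 2-fold higher with a pseudocount of 5 CPM in place of 1. Depth limits ATF3, ADM2 and NIBAN1 most, which held 8 to 37 counts per library outside high-dose Glycyrrhizae and Paeoniae.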
